A study of Mus musculus with 6 samples.

Results

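Cells of the S3 segment, the straight final portion of the proximal tubule, were studied in single-cell libraries of 6 mouse kidneys. A cell barcode was counted as an S3 cell by a gate on its unique molecular identifiers (UMIs), each of which stands for 1 captured transcript. It had to show 500 UMIs and 250 genes or more, a mitochondrial share of UMIs no higher than 50%, and at least 2 UMIs of the S3 markers Slc7a13, Slc22a7, and Slc22a30 together. It could hold at most 1 UMI of Slc5a2 and Slc5a12 together, at most 1 of Havcr1, and none of Ptprc, Slc12a1, or Slc12a3. Slc5a2 and Slc5a12 are the glucose and lactate transporters of the earlier S1 and S2 segments, and Havcr1 (kidney injury molecule) appears on injured tubules. Ptprc marks leukocytes, Slc12a1 the thick ascending limb, and Slc12a3 the distal convoluted tubule. This gate found 5298 S3 cells among the 49797 barcodes that passed the limits on UMIs, genes, and mitochondrial share. The cells were thus chosen by the measured UMIs of these 9 genes, whose levels are given as a description, without a test.

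The naive kidneys came from male C57BL/6 mice of 10 to 12 weeks that had no transplant. The rejecting kidneys were grafts from BALB/c donors of 6 to 7 weeks, labelled male, placed in C57BL/6 males whose own kidneys were both removed, and they were taken on day 15 from recipients that received no treatment. The tolerized kidneys were the same grafts on the same day, in recipients that had also been infused intravenously with BALB/c splenocytes fixed with ethylcarbodiimide (ECDI). There were 2 kidneys per group with 1 library per kidney, and the kidney was the replicate. A graft is BALB/c in its own tubular cells, whereas leukocytes in it can come from the C57BL/6 recipient. Strain, age, surgery, and the barcode set and gene list of the libraries all changed together between naive kidneys and grafts, so that their parts in any difference from naive kidneys cannot be told apart. Rejecting and tolerized kidneys shared the strain, age, and surgery.

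The S3 segment descends through the outer stripe of the outer medulla, takes back what solute the earlier segments left, and secretes organic anions and drugs through carriers of the Slc22 family. Its cells live on fatty acids rather than glucose, are rich in peroxisomes and in enzymes that handle foreign compounds, and are known to be easily injured when blood flow falls. Tubular cells carry little class II major histocompatibility complex (MHC) in a healthy kidney. Interferon-γ is known to induce it, through the coactivator Ciita, together with class I molecules and the guanylate-binding proteins and immunity-related GTPases that defend cells from within.

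The matrices held 41562534 and 34874702 UMIs (naive), 56837038 and 48111410 (rejecting), and 96803926 and 94316013 (tolerized). Of these, 9530200 and 6325471, 4204386 and 1860472, and 10881571 and 5807030 UMIs, in the same order, belonged to S3 cells. The median S3 cell held 4366 and 4504 UMIs (naive), 6229 and 6232 (rejecting), and 8405.5 and 12676 (tolerized), and so the groups did not overlap in depth. Its median mitochondrial share was 25.4% and 24.7% (naive), 16.9% and 17.0% (rejecting), and 14.8% and 17.0% (tolerized). The naive libraries stood apart from the grafts in 2 further ways. Their least deep kept barcodes had 1538 and 1342 UMIs, as against 500 to 502 in the grafts, and their barcodes came from another set: 22 and 20 began with AAACCT and none with AAACCC, whereas in each graft 5 to 13 began with AAACCC and none with AAACCT. The naive kidneys shared 111 barcodes with each other, pairs of grafts shared 18 to 35, and a naive kidney and a graft shared at most 4. The Y-linked genes Ddx3y and Eif2s3y were found in S3 cells of all 6 kidneys, with Ddx3y at 54.1 and 61.7 CPM (naive), 33.5 and 33.2 (rejecting), and 33.8 and 38.2 CPM (tolerized), which matches the male labels.

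The label S3 was checked with Rdh16f2, a retinol dehydrogenase gene of the S3 segment that the gate did not use. Its raw level, in CPM (UMIs scaled to a common total, here all UMIs of the cells), was 54.2 and 51.5 (naive), 256 and 417 (rejecting), and 473 and 288 (tolerized). In S1/S2 cells of the same kidneys, taken by the mirror image of the gate (at least 2 UMIs of Slc5a2 and Slc5a12, at most 1 of the S3 markers, the other limits unchanged), it was 7.09 and 15.5, 29.7 and 40.8, and 64.9 and 26.8 CPM. Rdh16f2 was therefore higher in S3 than in S1/S2 cells within each of the 6 kidneys. Each marker of the gate was found in every kidney. Slc7a13, an amino acid transporter gene at chr4:19818725-19842218 of GRCm38, had a raw level of 946 and 853 CPM (naive), 594 and 509 (rejecting), and 463 and 561 (tolerized). Slc22a30, an organic anion transporter gene at chr19:8335371-8405111, stood at 504 and 585, 184 and 192, and 184 and 171 CPM, and Slc22a7, another one at chr17:46432183-46438457, at 66.6 and 117, 244 and 256, and 316 and 159 CPM. Slc7a13 and Slc22a30 were thus highest in the naive kidneys and Slc22a7 in the grafts, so that a gate on any 1 of them would have taken other cells. The share of S3 cells with UMIs of all 3 markers was 11.9% and 16.7% (naive), 26.8% and 26.4% (rejecting), and 33.4% and 40.0% (tolerized).

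At the edge of the gate, cells with exactly 2 marker UMIs, the fewest allowed, numbered 372 and 285 (naive), 123 and 46 (rejecting), and 157 and 46 (tolerized). Their raw Rdh16f2 level was 31.5 and 47.1, 158 and 358, and 383 and 214 CPM. Cells that met every other condition but had 1 marker UMI numbered 652 and 646, 272 and 91, and 294 and 102, with Rdh16f2 at 28.5 and 31.2, 107 and 200, and 245 and 108 CPM. Cells just outside thus carried somewhat less of this S3 gene than those just inside, and more than cells with no marker UMI (9.44 and 13.7, 32.1 and 37.1, and 78.7 and 17.0 CPM). A further 25 and 29 cells of the rejecting kidneys and 107 and 13 of the tolerized kidneys met the S3 markers but held 2 or more UMIs of Havcr1, and none did in the naive kidneys. They were left out by the gate, so the values below are those of S3 cells that kept their markers and held at most 1 UMI of Havcr1. Within these cells Havcr1, which the gate only capped, was at 0.116 and 0.838 CPM (naive), 13.1 and 19.3 (rejecting), and 14.3 and 5.75 CPM (tolerized), scaled as described for the comparison of expression. Slc5a2, capped likewise, was at 24.4 and 31.8 CPM (naive), 2.95 and 1.98 (rejecting), and 2.06 and 9.65 CPM (tolerized), and Slc5a12 at 6.39 and 7.21 CPM (naive), 1.69 and 2.48 (rejecting), and 2.69 and 4.64 CPM (tolerized). Havcr1 was thus lowest and Slc5a2 and Slc5a12 highest in the naive S3 cells, and Ptprc was at 0 by the gate. As a possible sign of free RNA from S3 cells, the S3 markers were read in T cells. These were barcodes with Ptprc, at least 3 UMIs of Cd3d, Cd3e, Cd3g, and Trbc2, and none of Lyz2, C1qa, C1qb, or Cd79a. Of these, 1.02% and 0.397% (rejecting) and 1.71% and 1.76% (tolerized) reached 2 S3 marker UMIs. The naive kidneys held 23 and 25 T cells, too few for such shares.

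Fewer S3 cells passed the gate in the grafts. Naive kidneys gave 1851 and 1327 of them (mean 1589 ± 371, SD, n = 2), rejecting kidneys 542 and 239 (390.5 ± 214), and tolerized kidneys 984 and 355 (669.5 ± 445). Both naive kidneys were above every graft, while the rejecting and tolerized kidneys overlapped. Cells that met every other limit but held a UMI of Ptprc, Slc12a1, or Slc12a3 numbered 292 and 245 (naive), 214 and 55 (rejecting), and 321 and 223 (tolerized). In the second tolerized kidney, 223 cells were thus removed beside 355 kept. The part of this rule in the numbers and shares of S3 cells was not tested. As a share of kept barcodes, S3 cells made up 25.6% and 21.9% (naive), 4.62% and 2.96% (rejecting), and 10.0% and 5.16% (tolerized), and here no pair of groups overlapped. The share also falls when other cells, such as leukocytes, are added. Among proximal tubule cells alone, S3 cells as a percentage of S3 plus S1/S2 cells were 72.2% and 70.2% (naive), 52.8% and 48.3% (rejecting), and 55.7% and 29.9% (tolerized). By exact two-sided permutation tests the share of kept barcodes gave p = 0.33 for each pair of groups, below which a test of 2 against 2 cannot go. The limit on mitochondrial UMIs mattered. With at most 20% instead of 50%, 607 and 470 S3 cells were left (naive), 345 and 167 (rejecting), and 817 and 225 (tolerized), so that the ratio of mean numbers, tolerized to naive, was 0.968 instead of 0.421 and the ratio of rejecting to naive 0.475 instead of 0.246.

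**Figure D1:**
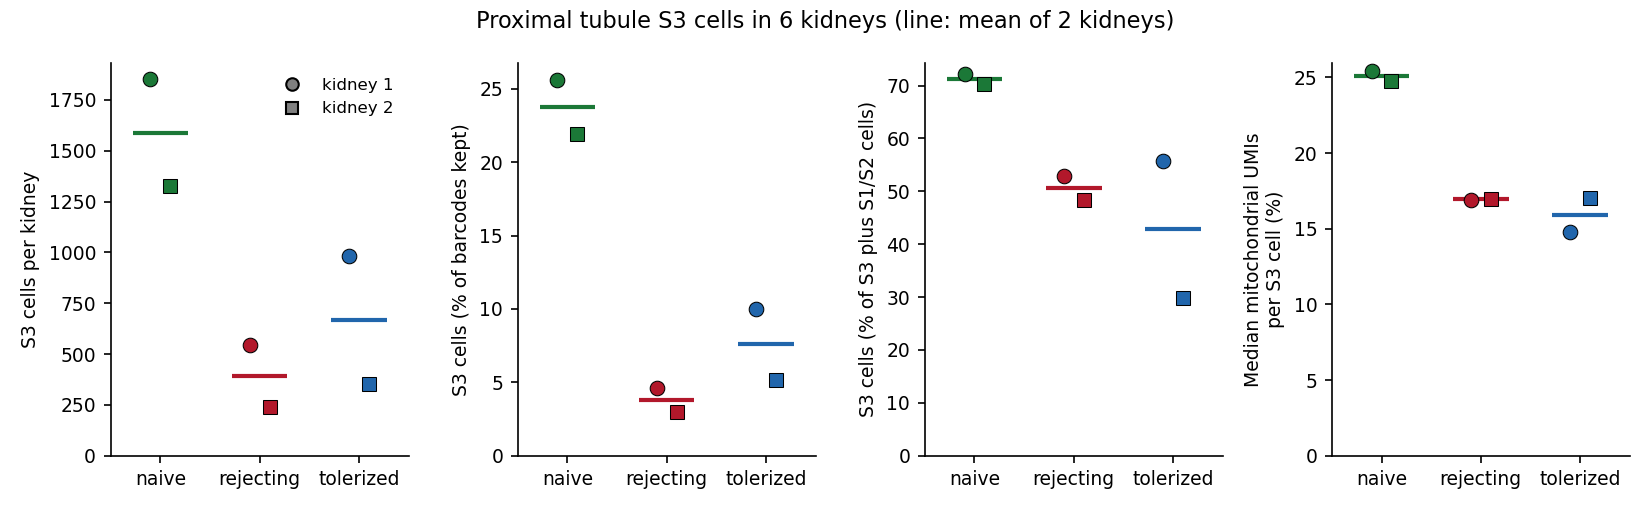
S3 cells per kidney (circle, kidney 1; square, kidney 2; line, mean of 2 kidneys) as a number, a percentage of kept barcodes, and a percentage of S3 plus S1/S2 cells, and the median mitochondrial percentage of their UMIs. Naive kidneys lie above all grafts in each panel, and the second tolerized kidney has the lowest share among S3 plus S1/S2 cells, at 29.9%.

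To compare expression, the UMIs of S3 cells were summed per kidney, scaled by the trimmed mean of M values (TMM), and tested with edgeR's quasi-likelihood test over 11059 genes. Levels below are CPM after this scaling unless named otherwise, and the false discovery rate (FDR) is the Benjamini-Hochberg adjusted p of that test, with a threshold of 0.05. In rejecting versus naive kidneys 28.4% of genes passed, with 15.4% higher (1702 genes) and 13% lower (1442 genes). In tolerized versus naive kidneys 19.1% passed, with 10.3% higher (1135) and 8.83% lower (977). In tolerized versus rejecting kidneys 1 gene passed, or 0.00904%. Both comparisons with naive kidneys use the same naive libraries. The median log2 fold change over all genes was 0.04 and -0.01 against naive kidneys, and -0.02 in tolerized versus rejecting kidneys. Leaving out a kidney of the groups compared gave fewer calls, among them 1444 without naive 1, 1617 without naive 2, and 1794 without rejecting 1 in rejecting versus naive kidneys, and 854 without naive 1, 852 without naive 2, and 1003 without tolerized 1 in tolerized versus naive kidneys. Without a kidney of the third group the numbers were 3045 and 3094 (rejecting) and 2548 and 2550 (tolerized).

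RNA of the MHC class II machinery was higher in S3 cells of both kinds of graft than in those of naive kidneys. All 7 genes of the list rose in rejecting and in tolerized kidneys versus naive kidneys, against 15.4% and 10.3% of all genes tested, with median log2 fold changes of 6.32 and 6.27. Cd74, the invariant chain that escorts class II molecules to the compartment where peptide is loaded, was at 42.8 and 71.9 CPM (naive), 4081 and 4517 (rejecting), and 5390.4 and 4286 CPM (tolerized). The 4 grafts lay close together and none overlapped with the naive kidneys (log2 fold change 6.23 with a standard error (SE) of 0.30, FDR 1.7e-06 for rejecting; log2 fold change 6.40, SE 0.31, FDR 1.7e-06 for tolerized). H2-Ab1, the β chain of the I-A molecule that presents peptide to CD4+ T cells, was at 12.9 and 36.4 CPM (naive), 1915 and 2209.9 (rejecting), and 2242 and 2015 CPM (tolerized), which gave log2 fold changes of 6.41 and 6.45. Its partner chain gene H2-Aa, at 7.32 and 24.3 CPM (naive), 1146 and 1328 (rejecting), and 1267 and 989 CPM (tolerized), followed the same order of naive below grafts. H2-Eb1, the β chain of the I-E molecule, was at 6.97 and 19.3 CPM (naive), 1026 and 1063 (rejecting), and 1088 and 889 CPM (tolerized). Unlike these chains, Ciita encodes the coactivator that switches on the class II genes, and it was at 0.465 and 0.503 CPM (naive), 69.1 and 66.8 (rejecting), and 53.9 and 42.3 CPM (tolerized). Ciita was thus close to 0 in the naive kidneys and of like level in the 4 grafts (FDR 9.6e-07 and 1.5e-06).

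The class II genes share an upstream box of promoter elements, of which the last is an inverted CCAAT box, read GATTGG on the coding strand. The stretches of 120 bases before the start site are shown for those class II genes of the list in which these 6 letters were found, with matches in capitals on either strand (CCAATC is the same box on the other strand). Sequences are those of RefSeq for GRCm38.p6, read 5′ to 3′ on the coding strand: H2-Aa at chr17:34287824-34287943 on the minus strand, H2-Eb1 at chr17:34305747-34305866 on the plus strand, and H2-DMb1, which helps exchange the peptide, at chr17:34153071-34153190 on the plus strand.
H2-Aa: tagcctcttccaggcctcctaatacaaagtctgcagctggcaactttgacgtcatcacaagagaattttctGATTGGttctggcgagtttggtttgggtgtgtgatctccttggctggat
H2-Eb1: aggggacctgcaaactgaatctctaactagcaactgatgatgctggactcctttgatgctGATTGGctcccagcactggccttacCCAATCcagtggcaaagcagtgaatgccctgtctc
H2-DMb1: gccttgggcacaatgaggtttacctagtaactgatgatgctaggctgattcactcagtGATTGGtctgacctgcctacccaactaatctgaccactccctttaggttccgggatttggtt
The box began 49, 60, and 62 bases before the start in H2-Aa, H2-Eb1, and H2-DMb1. Promoters of 4 of the 7 class II genes were in the sequence table, and 3 of these 4 held GATTGG within 250 bases before the start, compared with 14.6% of 32851 promoters of that length. A match is a string of letters and not a shown binding site. H2-DMb1 was at 3.14 and 4.86 CPM (naive), 66.8 and 143 (rejecting), and 106 and 109 CPM (tolerized).

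Leukocytes carry far more class II than tubular cells, so their markers were read in the same S3 cells. The gate removed every barcode with Ptprc, and the 28 leukocyte markers together still came to 36.2 and 97.0 CPM (naive), 1034 and 295 (rejecting), and 202 and 150 (tolerized). The first rejecting kidney thus stood apart, with the macrophage gene Lyz2 as its most abundant marker, while the summed level of the 7 class II genes was 8491 and 9515 CPM in rejecting and 10336 and 8499 in tolerized kidneys. After thinning to 1500 UMIs, Cd74 was found in 2.11% and 3.18% (naive), 99.4% and 99.1% (rejecting), and 98.7% and 96% (tolerized), each a share of S3 cells. In T cells of the grafts, which make little class II, the shares were 50% and 19.6% (rejecting) and 26.4% and 32.7% (tolerized), at medians of 1863 to 5011 UMIs per T cell. Raw Cd74 levels of T cells were 1059 and 422 (rejecting) and 628 and 511 (tolerized) CPM, as against 4607 and 4904 (rejecting) and 5527 and 3977 (tolerized) CPM in S3 cells. Shares and levels in S3 cells were thus above those in T cells of the same graft. The T cells were taken with no UMI of Lyz2, C1qa, C1qb, or Cd79a, a rule not set for S3 cells, so the 2 were not chosen alike. Thinning also left out 123 of the 295 T cells of the first rejecting kidney. In phagocytes, taken by Ptprc and at least 5 UMIs of C1qa, C1qb, and Lyz2, raw Lyz2 stood at 9941 to 18610.5 CPM beside Cd74 at 19939.9 to 28384 CPM. In S3 cells of the grafts Lyz2 stood at 193 and 48.4 CPM (rejecting) and 39.7 and 18.1 CPM (tolerized) beside the Cd74 levels just given. The part of free RNA and of RNA from leukocytes in the class II values of S3 cells was not tested. Without rejecting 1, all 7 class II genes still rose in rejecting versus naive kidneys.

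The class I pathway rose with it. All 18 genes of class I molecules and of peptide cutting and loading rose in rejecting and in tolerized kidneys, as did 15.4% and 10.3% of all genes, with median log2 fold changes of 4.44 and 4.01. B2m, the light chain common to class I molecules, was at 129.8 and 220.2 CPM (naive), 1754 and 2735 (rejecting), and 1996 and 2514 CPM (tolerized), with no overlap between naive kidneys and grafts (log2 fold change 3.68, SE 0.31, FDR 5.1e-05 for rejecting; log2 fold change 3.69, SE 0.31, FDR 5.1e-05 for tolerized). H2-K1, a heavy chain gene, was at 55.1 and 85.6 CPM (naive), 1599 and 1432 (rejecting), and 1394 and 1185 CPM (tolerized). H2-D1, another heavy chain, had log2 fold changes of 4.83 and 4.66, and Calr, a chaperone of folding class I molecules, of 0.99 and 1.00. H2-K1 and H2-D1 are near-identical in places and differ between the strains, so their single values are uncertain where counting could split reads between them. Psmb8, the subunit that turns the proteasome into the immunoproteasome, was at 3.60 and 3.52 CPM (naive), 706 and 793 (rejecting), and 575 and 571 CPM (tolerized), and its log2 fold changes, 7.71 and 7.32, were the largest of the list.

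Other motifs were searched in the promoters of the class I and interferon-γ lists, and 3 promoters are shown because they hold them close to the start. Searched letters were those of the interferon-stimulated response element (ISRE, GAAANNGAAA) and of the γ-activated site (GAS, TTCNNNGAA), beside GATTGG, on both strands. The B2m stretch of 150 bases lies at chr2:122147537-122147686, and the stretches of 120 bases of Gbp2, a guanylate-binding protein, and Igtp, an immunity-related GTPase, at chr3:142620543-142620662 and chr11:58199436-58199555, all on the plus strand of GRCm38.p6 from RefSeq, with each match in capitals.
B2m: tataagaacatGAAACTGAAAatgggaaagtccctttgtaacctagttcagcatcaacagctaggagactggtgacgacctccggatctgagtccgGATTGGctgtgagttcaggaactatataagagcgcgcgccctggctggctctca
Gbp2: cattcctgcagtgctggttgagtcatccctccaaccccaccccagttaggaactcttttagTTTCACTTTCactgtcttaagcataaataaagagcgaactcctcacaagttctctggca
Igtp: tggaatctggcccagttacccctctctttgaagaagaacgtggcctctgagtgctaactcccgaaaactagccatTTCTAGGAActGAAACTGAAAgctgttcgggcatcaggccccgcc
B2m held an ISRE that began 139 bases and a CCAAT box that began 54 bases before the start. Gbp2 held an ISRE on the other strand 59 bases before the start, and Igtp a GAS at 45 and an ISRE at 34 bases. ISRE letters were found in 9 of 18 promoters of the interferon-γ list and GAS letters in 8 of 18, compared with 2.98% and 7.02% of all promoters. In the class I list, to which B2m belongs, ISRE letters were found in 2 of 15 promoters and GAS letters in 1 of 15, the latter share being near that of all promoters. Among 20 promoters of respiratory chain genes, which are described below, neither was found. These promoters are too few to tell that from the 2.98% and 7.02% of all promoters.

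Of 25 tested genes that interferon-γ induces, 24 rose in rejecting and 24 in tolerized kidneys (all genes, 15.4% and 10.3%), with median log2 fold changes of 6.08 and 5.59. The exception was Socs3, a brake on cytokine receptors, in both comparisons. Iigp1, an immunity-related GTPase that attacks the vacuoles of parasites, was at 1.39 and 4.53 CPM (naive), 1233 and 1813 (rejecting), and 1145 and 1154 CPM (tolerized). No graft overlapped with a naive kidney (log2 fold change 9.09, SE 0.45, FDR 1.8e-06 for rejecting; log2 fold change 8.68, SE 0.44, FDR 2.3e-06 for tolerized). Raw Iigp1 in the grafts was higher in S3 cells, at 1071 to 1968 CPM, than in T cells, at 132 to 376 CPM, or phagocytes, at 312 to 543 CPM. Igtp was at 3.25 and 9.89 CPM (naive), 505 and 515 (rejecting), and 369 and 342 CPM (tolerized). C4b, a complement component that tubular cells secrete, was at 1.98 and 1.34 CPM (naive), 240.4 and 203 (rejecting), and 242 and 195 CPM (tolerized), with log2 fold changes of 7.01 and 6.99. Ubd, a ubiquitin-like protein also called FAT10, was at 0.232 and 1.17 CPM (naive), 452 and 434 (rejecting), and 231 and 199 CPM (tolerized). The rejecting kidneys were thus above the tolerized ones in Ubd, with no overlap, but the difference did not pass (log2 fold change -1.04, SE 0.23, FDR 0.17), although it did with DESeq2 and without the filter on low counts.

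Guanylate-binding proteins led the genes of largest change. Gbp2b, Gbp4, and Gbp10 had no UMI in S3 cells of either naive kidney. Gbp2b, also known as Gbp1, was at 382 and 465 CPM in rejecting and 301 and 303 CPM in tolerized kidneys, and was at least 1975-fold and at least 1465-fold higher than in naive kidneys, given a floor of 3 UMIs over both naive kidneys. Gbp4 was likewise at least 516-fold and at least 362-fold higher, and Gbp10 at least 506-fold and at least 271-fold. Copies in this gene family are near-identical in part and differ between strains, so the values of single members are uncertain. Gbp2 does not rest on a group at 0. It was at 0.349 and 1.51 CPM (naive), 172 and 161 (rejecting), and 122 and 112 CPM (tolerized), with log2 fold changes of 7.60 and 7.10. Tgtp1, a GTPase of the same defence, rose by a log2 of 7.37 in rejecting kidneys. Among genes outside the interferon lists, Angptl7, a secreted angiopoietin-like protein, was at 3.95 and 2.85 CPM (naive), 445 and 601 (rejecting), and 574 and 746 CPM (tolerized), and so went from near absence in naive kidneys to a level well above it in every graft (log2 fold change 7.23, SE 0.29, FDR 8.2e-07 for rejecting; log2 fold change 7.57, SE 0.30, FDR 7.8e-07 for tolerized). Its thinned share of cells in the grafts was 49.6% to 58.6% in S3 cells and 0.867% to 5.62% in T cells.

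Genes stimulated mainly by type I interferon rose as well. Of 19 tested, 19 rose in rejecting and 18 in tolerized kidneys, beside 15.4% and 10.3% of all genes, with median log2 fold changes of 3.51 and 3.15. Bst2, which tethers viruses to the cell, changed by a log2 of 5.66 and 5.27, and Isg15, a ubiquitin-like modifier, by 5.20 and 4.27. Ifi27 and Parp14, the other abundant members, changed by 3.51 and 3.17 and by 6.90 and 5.81. The member that did not pass in tolerized kidneys was Rsad2, an antiviral enzyme, with a log2 fold change of 1.18 (FDR 0.18). Without rejecting 1, 17 of the 19 rose in rejecting kidneys, and the counts of the class I list (18 of 18) and the interferon-γ list (24 of 25) stayed as they were.

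**Figure D2:**
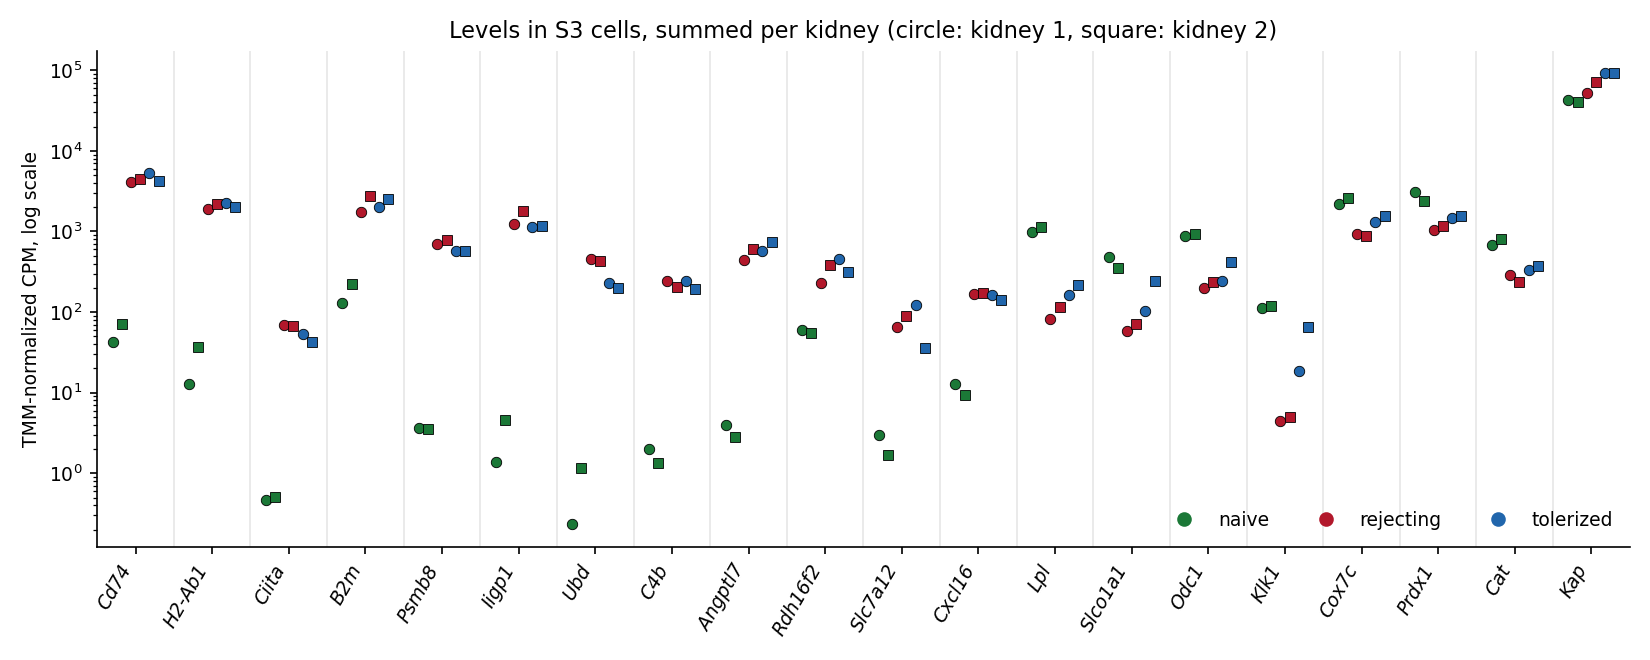
Levels of named genes in S3 cells in each kidney, in CPM after TMM scaling on a log axis (circle, kidney 1; square, kidney 2; naive, rejecting, and tolerized kidneys from left to right within a gene). Class II, class I, and interferon-γ genes are low in both naive kidneys and high in all 4 grafts, whereas Lpl and Odc1 are highest in the naive kidneys.

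Genes of S3 identity passed in both directions. Of 16 S3 identity genes outside the gate, 5 rose and 6 fell in rejecting kidneys and 5 rose and 4 fell in tolerized kidneys, with median log2 fold changes of -0.39 and -0.40, where 28.4% and 19.1% of all genes passed in either direction. Rdh16f2 was at 60.1 and 54.6 CPM (naive), 226 and 384 (rejecting), and 461 and 311 CPM (tolerized), above the naive level in all grafts (FDR 0.00036 and 0.00019). Napsa, an aspartic protease of lysosomes, was at 1295 and 1022 CPM (naive), 2803 and 3105 (rejecting), and 3043 and 2383 CPM (tolerized), with log2 fold changes of 1.35 and 1.23. Mep1b, a subunit of the brush border protease meprin, was at 46.6 and 58.5 CPM (naive), 117 and 114 (rejecting), and 137 and 85.6 CPM (tolerized), also without overlap between naive kidneys and grafts. Cyp4b1, a cytochrome P450 enzyme abundant in these cells, was at 3873 and 2567 CPM (naive), 1774 and 1763 (rejecting), and 1736 and 2077 CPM (tolerized). It fell in rejecting (log2 fold change -0.86, FDR 0.015) and tolerized kidneys (-0.76, FDR 0.036). Its fall in rejecting kidneys lost the call without naive 1, and that in tolerized kidneys without naive 1, without either tolerized kidney, with at most 20% mitochondrial UMIs, and with a block for the replicate number (FDR 0.060). Acy3, which removes acetyl groups from conjugates, fell in rejecting kidneys (-0.66, FDR 0.018) and had a change of -0.32 (FDR 0.21) in tolerized kidneys, and Ggt1, which splits glutathione at the brush border, rose in tolerized kidneys by 0.66. Agt, the angiotensin precursor, had 236 UMIs over both naive kidneys, 1 over the rejecting, and 10 over the tolerized kidneys, and its CPM in naive kidneys was 109.6 times that in rejecting kidneys (95% counting interval 19.7 to 4329).

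Genes that differ between male and female proximal tubules were read next, since every animal was labelled male although the study's methods allow donors of either sex. Of 12 tested, 2 rose and 5 fell in rejecting kidneys, and 4 rose and 4 fell in tolerized kidneys. The share that rose in rejecting kidneys was near the 15.4% of all genes, and 13% of all genes fell there. In tolerized kidneys 10.3% of all genes rose and 8.83% fell. Slc7a12, an amino acid transporter gene known as higher in females, was at 3.02 and 1.68 CPM (naive), 65.3 and 90.6 (rejecting), and 121 and 35.6 CPM (tolerized), and so was higher in every graft (log2 fold change 4.98, SE 0.60, FDR 0.00044 for rejecting; log2 fold change 5.02, SE 0.60, FDR 0.00047 for tolerized). Odc1, the androgen-induced first enzyme of polyamine synthesis, was at 875 and 938 CPM (naive), 201 and 235 (rejecting), and 239.8 and 419 CPM (tolerized). The naive kidneys thus had the highest Odc1, with log2 fold changes of -2.06 and -1.46 and no overlap. Slco1a1, an organic anion transporter that androgens maintain, was at 485 and 349.8 CPM (naive), 57.5 and 71.8 (rejecting), and 102 and 241 CPM (tolerized) (log2 fold change -2.70, FDR 0.00088, and -1.29, FDR 0.028). Over 16 alternatives its change in tolerized kidneys was -2.03 to -0.77, and the call was lost in 5 of them. Kap, the kidney androgen-regulated protein at chr6:133849851-133853762, went the other way, at 42687 and 40779 CPM (naive), 52003 and 71912 (rejecting), and 91512 and 91711 CPM (tolerized). Kap rose in tolerized kidneys (log2 fold change 1.13, SE 0.21, FDR 0.0048) and did not pass in rejecting kidneys (0.57, FDR 0.062) or in tolerized versus rejecting kidneys (0.56, FDR 0.39), where it passed without the filter on low counts and without rejecting 2 (0.83). Raw Kap also reached 993 to 4588 CPM in T cells and phagocytes of the grafts, compared with at least 58705 CPM in S3 cells of the grafts. The parts of free RNA and of barcodes that hold more than 1 cell in the T cell and phagocyte levels were not tested. Cyp2e1, an ethanol-oxidizing P450, was at 997 and 1043 CPM (naive), 389 and 418 (rejecting), and 534 and 841 CPM (tolerized), and fell in rejecting kidneys (-1.34, FDR 0.0021). Its change in tolerized kidneys was -0.57 (FDR 0.093).

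Of 23 carriers of organic ions and drugs, 2 rose and 5 fell in rejecting kidneys and 3 rose and 4 fell in tolerized kidneys, and of 31 carriers of reabsorbed solutes 10 rose and 3 fell, and 8 rose and 2 fell. Over all tested genes 28.4% passed in rejecting and 19.1% in tolerized kidneys, and the share of the organic ion carriers that passed in rejecting kidneys was close to this. The organic anion transporter Slc22a6 and the urate transporter Slc22a12, from the first list, had log2 fold changes of -0.11 and -0.52 in rejecting kidneys (FDR 0.65 and 0.057). Slc17a1, a phosphate and urate transporter, fell in rejecting kidneys by 0.66 on the log2 scale. Slc34a1, the sodium-phosphate cotransporter, was at 3434 and 3098 CPM (naive), 2444 and 2244 (rejecting), and 2937 and 2771 CPM (tolerized) and did not pass. Of 11 genes of endocytosis, 3 rose and 1 fell in rejecting kidneys and 1 rose in tolerized kidneys. Lrp2 (megalin), which takes up filtered proteins, rose in rejecting kidneys by 0.63 and had 0.36 in tolerized kidneys (FDR 0.16), and the lysosomal membrane protein gene Lamp1 rose in both, by 0.74 and 0.81. Of 12 genes of the S1 and S2 segments, 4 rose and 1 fell in rejecting and 3 rose in tolerized kidneys. Slc9a3, the sodium-proton exchanger, was nearly without UMIs in naive S3 cells (0.581 and 0 CPM (naive), 34.1 and 40.1 (rejecting), and 32.4 and 46.4 CPM (tolerized)), and whether the gene lists of the naive and graft libraries count it alike was not tested.

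Metabolic genes are given beside all tested genes, of which 15.4% rose and 13% fell in rejecting and 10.3% rose and 8.83% fell in tolerized kidneys. Of 47 genes of fatty acid oxidation and peroxisomes, 9 rose and 11 fell in rejecting kidneys, and 9 rose and 10 fell in tolerized kidneys, with medians of -0.27 and 0.01. Lpl, the lipase that frees fatty acids from lipoproteins, was outside this list and among the largest falls, at 971 and 1141 CPM (naive), 81.5 and 117 (rejecting), and 164 and 214 CPM (tolerized). Naive kidneys were far above all grafts (log2 fold change -3.43, SE 0.24, FDR 1.3e-05 for rejecting; log2 fold change -2.48, SE 0.22, FDR 8.0e-05 for tolerized). G0s2, an inhibitor of fat breakdown, was at 147 and 94.5 CPM (naive), 15.6 and 6.93 (rejecting), and 14.1 and 24.3 CPM (tolerized), with log2 fold changes of -3.31 and -2.69. Cat, the peroxisomal enzyme that destroys hydrogen peroxide, was at 682 and 796 CPM (naive), 287 and 239 (rejecting), and 332 and 371 CPM (tolerized) and fell in both. Slc27a2, which carries and activates long fatty acids, fell in tolerized kidneys (-0.71, FDR 0.026). In the other direction went Hao2, a peroxisomal hydroxy acid oxidase, at 205 and 147 CPM (naive), 299 and 413 (rejecting), and 489 and 371 CPM (tolerized), and Pdk4, the kinase that turns the cell from glucose to fatty acids, with log2 fold changes of 3.32 and 3.04. Of 16 genes of gluconeogenesis and ammonia genesis, 2 rose and 3 fell in rejecting kidneys and 5 rose in tolerized kidneys, among them Fbp1, which releases glucose precursors from fructose bisphosphate, at 0.66 (FDR 0.031), a call that was lost without any 1 of the naive or tolerized kidneys. Of 14 glycolysis genes 3 rose and 1 fell in rejecting and 3 rose in tolerized kidneys, with Pgk1 among them, whose reads are shared with near-identical copies. In rejecting kidneys, the shares of the glycolysis and gluconeogenesis lists that passed in either direction were near the 28.4% of all genes.

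More antioxidant genes fell than rose. Of 31 glutathione and antioxidant genes, 1 rose and 10 fell in rejecting kidneys, and 2 rose and 8 fell in tolerized kidneys, with medians of -0.26 and -0.15, as against 13% and 8.83% of all genes that fell. The 14 members of 1000 to 2000 exon bases had medians of -0.63 and -0.34, and all 1224 tested genes of that length -0.29 and -0.16, and the part of transcript length was not tested. Prdx1, a peroxidase, was at 3048 and 2355 CPM (naive), 1040.2 and 1156 (rejecting), and 1480.1 and 1570.2 CPM (tolerized), lower in every graft (log2 fold change -1.30, SE 0.18, FDR 0.00098 for rejecting; log2 fold change -0.82, SE 0.18, FDR 0.012 for tolerized). Nqo1, a quinone reductase, changed by -1.41 and -1.06, and with the gate on thinned counts its change in rejecting kidneys was -0.77 and did not pass (FDR 0.052). The metallothioneins Mt1 and Mt2, which bind zinc and copper, fell most within the list, with Mt1 at 86.1 and 77.8 CPM (naive), 13.5 and 3.96 (rejecting), and 12.7 and 23.2 CPM (tolerized) (log2 fold changes -3.06 and -2.22). Gpx3, the glutathione peroxidase that the proximal tubule secretes into plasma, was at 8975 and 9299 CPM (naive), 5024 and 5109 (rejecting), and 8169.5 and 5472 CPM (tolerized). It fell in rejecting kidneys (-0.85, FDR 0.015), whereas the tolerized kidneys overlapped with neither group and did not pass versus naive (FDR 0.19) or rejecting kidneys (FDR 0.52). Of 26 xenobiotic and steroid enzymes, 4 rose and 10 fell in rejecting kidneys, and 4 rose and 6 fell in tolerized kidneys, and the share that rose in rejecting kidneys was that of all genes, 15.4%.

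Subunits of the respiratory chain encoded in the nucleus fell in part. Of 31 subunits, 20 fell in rejecting and 5 in tolerized kidneys, and none rose, against 13% and 8.83% of all genes that fell. Median log2 fold changes were -0.68 and -0.42, and their summed level was 30840.0 and 33324 CPM (naive), 18885 and 17700.0 (rejecting), and 23603 and 24717 CPM (tolerized). Cox7c, a small subunit of cytochrome c oxidase, was at 2213 and 2621 CPM (naive), 942 and 867 (rejecting), and 1298 and 1565 CPM (tolerized), so that the tolerized kidneys lay between the other groups without overlap (log2 fold change -1.42, SE 0.18, FDR 0.00055 for rejecting; log2 fold change -0.76, SE 0.18, FDR 0.016 for tolerized). Ndufa4, first described in complex I, was at 2733 and 2865 CPM (naive), 1517 and 1092 (rejecting), and 1569 and 1875 CPM (tolerized), and its call in tolerized kidneys (-0.70, FDR 0.035) was lost without any 1 of the naive or tolerized kidneys and with a block for the replicate number (FDR 0.058). Atp5k, a subunit of ATP synthase, was at 980.5 and 1240.5 CPM (naive), 210.3 and 359 (rejecting), and 725 and 566 CPM (tolerized), and fell in rejecting kidneys (-1.97, FDR 0.00079). Its tolerized level did not pass against naive (-0.78, FDR 0.060) or rejecting kidneys (1.19, FDR 0.17). The latter did pass with DESeq2 (FDR 0.0015), without the filter on low counts, without rejecting 2 (1.64), and with a block in which the tolerized numbers were crossed. Without rejecting 1, 16 of the 31 fell in rejecting kidneys. Short genes as a class moved the same way: over 350 tested genes under 1000 exon bases the median log2 fold change was -0.67 in rejecting and -0.34 in tolerized kidneys, compared with 0.15 and 0.06 over 6137 genes above 4000 bases. The 6 subunits under 1000 bases had medians of -1.24 and -0.66. The part of transcript length in the fall of these subunits was not tested.

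**Figure D3:**
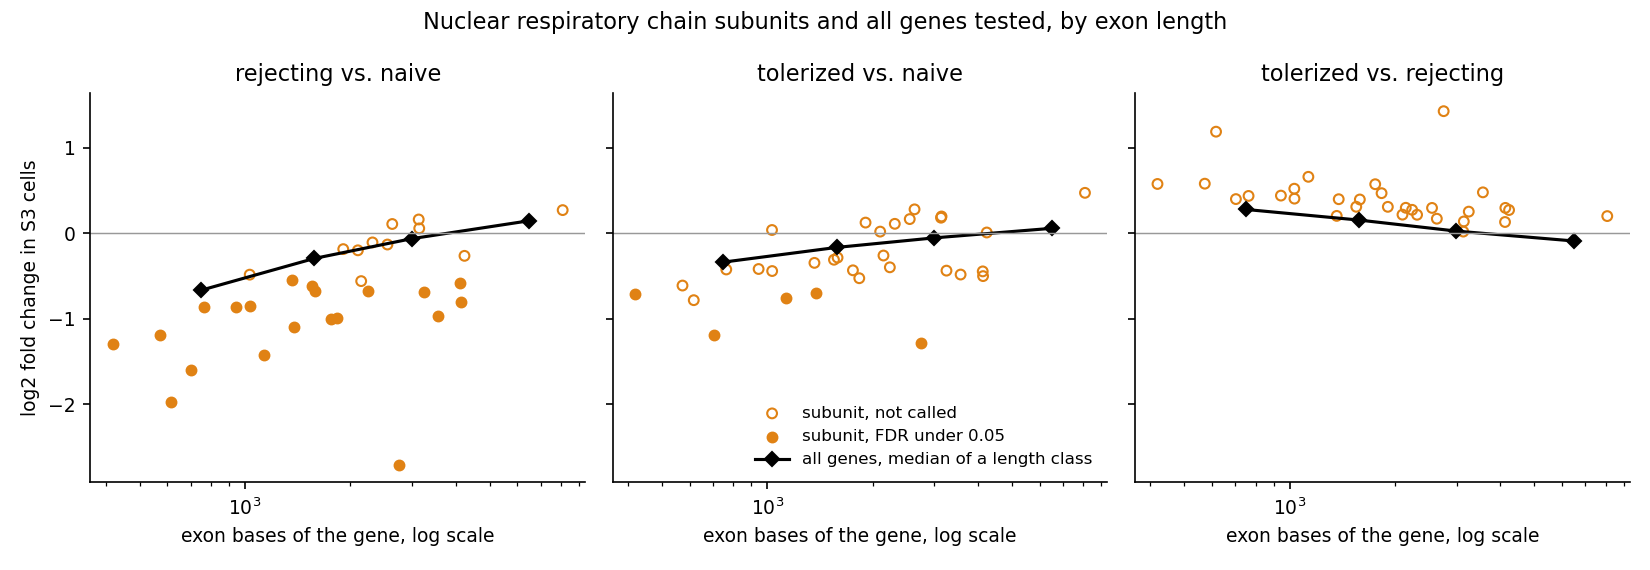
Log2 fold change in S3 cells against the exon bases of the gene (log axis) for the 31 respiratory chain subunits (filled points passed an FDR of 0.05, open points did not) and for the median of all tested genes in each of 4 length classes (diamonds), with 1 panel per comparison. The medians of all genes run downward toward short genes against naive kidneys and upward in tolerized versus rejecting kidneys, where all 31 subunits lie above 0.

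Injury genes passed in both directions in these cells, after the gate had removed cells with 2 or more Havcr1 UMIs. Of 24 genes of tubular injury and repair, 9 rose and 5 fell in rejecting kidneys, and 3 rose and 6 fell in tolerized kidneys. Of all genes 15.4% rose and 13% fell, and 10.3% rose and 8.83% fell, so that the share of injury genes that rose in tolerized kidneys was near that of all genes. Krt8, a keratin of stressed epithelium, was at 77.3 and 66.9 CPM (naive), 165 and 122 (rejecting), and 135 and 131 CPM (tolerized), with log2 fold changes of 1.00 and 0.89. Gdf15, a stress-induced cytokine, was at 34.2 and 32 CPM (naive), 197 and 141 (rejecting), and 116 and 139 CPM (tolerized), higher in all grafts. Vcam1, the adhesion molecule of tubular cells that fail to repair, was at 0.232 and 1.17 CPM (naive), 36.2 and 30.7 (rejecting), and 17.2 and 14.1 CPM (tolerized), and rose in rejecting (5.71, FDR 2.1e-05) and tolerized kidneys (4.61, FDR 9.7e-05). Spp1 (osteopontin), at 95 and 108 CPM (naive), 201 and 581 (rejecting), and 342 and 149 CPM (tolerized), rose in rejecting kidneys (FDR 0.015) and varied between kidneys of a group by more than 2-fold in both kinds of graft. Without rejecting 1, 5 rose and 5 fell in rejecting kidneys. Klk1 (tissue kallikrein) and S100g, the calcium-binding protein calbindin-D9k, belong mainly to later nephron segments and were among the largest falls. Klk1 was at 111 and 119.8 CPM (naive), 4.42 and 4.95 (rejecting), and 18.4 and 65.7 CPM (tolerized) and S100g at 334 and 317 CPM (naive), 27.2 and 22.8 (rejecting), and 39 and 184 CPM (tolerized), and in both the second tolerized kidney was the highest graft. Klk1 had log2 fold changes of -4.64 and -1.49 (FDR 0.00057 and 0.042), and S100g of -3.69 and -1.56 (FDR 0.0020 and 0.065). The 13 markers of other nephron segments summed to 411 and 279 CPM (naive), 61.3 and 46.0 (rejecting), and 67.7 and 248 CPM (tolerized), which is the same order, led by Aqp2 in the first naive kidney and Umod in the other 5. The gate left Slc12a1 and Slc12a3 at 0, and the part of these other cells' RNA in the Klk1 and S100g values was not tested.

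Some stress genes rose in the grafts. Of 15 immediate early genes, which tissue handling also induces, 7 rose in rejecting and 6 in tolerized kidneys, as against 15.4% and 10.3% of all genes. Jun was at 694 and 562 CPM (naive), 1922 and 1383 (rejecting), and 1175 and 1265 CPM (tolerized) and Fos at 259 and 249 CPM (naive), 548 and 485 (rejecting), and 428 and 655 CPM (tolerized), both higher in all 4 grafts than in either naive kidney. Of 18 heat shock and endoplasmic reticulum chaperones, 10 rose in rejecting kidneys, and 4 rose and 2 fell in tolerized kidneys, with medians of 0.74 and 0.11. Hsp90aa1 was at 967 and 747 CPM (naive), 1640.1 and 1383 (rejecting), and 969 and 680.1 CPM (tolerized), and rose in rejecting kidneys (FDR 0.020), while the tolerized kidneys overlapped with the naive ones. Fewer chaperones rose in rejecting kidneys without naive 1 or without rejecting 1, and in tolerized kidneys without naive 2 or without tolerized 1. Each of these fits leaves 1 kidney in a group, and calls over all genes fell in them too. The part of any single kidney in the chaperone counts was not tested. Hsp90aa1 lost its call in 6 of 16 alternatives, among them those without naive 1, naive 2, or rejecting 1.

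Several chemokine genes rose in S3 cells, some of them in 1 library above all. Of 11 tested chemokine and adhesion genes, 7 rose and 1 fell in rejecting and 5 rose and 2 fell in tolerized kidneys, where 15.4% and 10.3% of all genes rose. Cxcl16, which draws CXCR6+ T cells, was at 12.8 and 9.39 CPM (naive), 167 and 174 (rejecting), and 162 and 143 CPM (tolerized), alike in all grafts (log2 fold change 3.93, SE 0.21, FDR 2.5e-06 for rejecting; log2 fold change 3.76, SE 0.20, FDR 3.7e-06 for tolerized). Ccl28, an epithelial chemokine, changed by 3.54 and 3.48. Ccl5, a T cell product in the list of leukocyte markers too, was at 0.465 and 3.18 CPM (naive), 156 and 14.9 (rejecting), and 12.6 and 7.42 CPM (tolerized), high in the first rejecting kidney alone. Ccl8, a macrophage chemokine, had no UMI in the naive kidneys, was at 62.4 and 6.93 CPM in rejecting and 6.01 and 5.20 CPM in tolerized kidneys, and was at least 223-fold and at least 27.9-fold higher than in naive kidneys, with the first rejecting kidney again apart. Of 21 tested leukocyte markers, 18 rose in rejecting and 3 in tolerized kidneys, and the latter share was not far from the 10.3% of all genes that rose. Fewer rose without rejecting 1, in a fit that leaves 1 rejecting kidney and gave fewer calls over all genes too. The markers summed to 1034 CPM in the first rejecting kidney and 295 CPM in the second, and the part of the first in this count was not tested. Of 9 tested endothelial and stromal markers none passed, with sums of 30.7 and 65.0 CPM (naive), 103 and 87.6 (rejecting), and 54.5 and 7.98 CPM (tolerized).

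**Figure D4:**
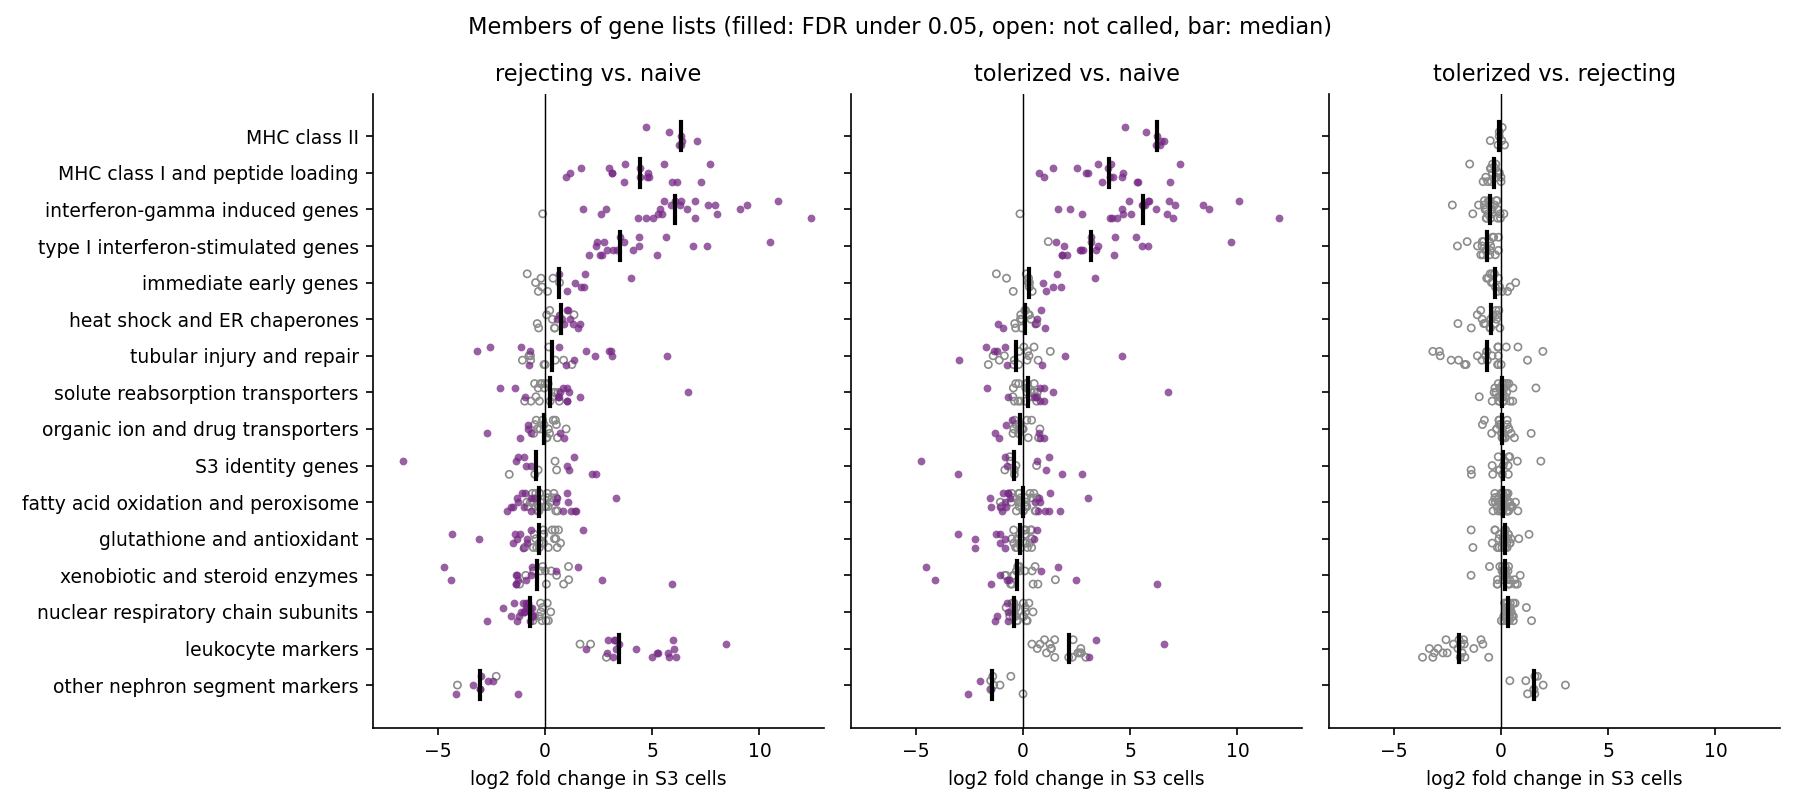
Log2 fold change in S3 cells of each tested member of a gene list (1 row per list; filled points passed an FDR of 0.05, open points did not, bars are list medians), with 1 panel per comparison. In both comparisons with naive kidneys every point of the MHC and type I interferon lists and 24 of 25 of the interferon-γ list lie to the right of 0, the median of the respiratory chain list lies to the left with 20 and 5 filled points and 4 and 10 of its 31 points to the right, and no point is filled in tolerized versus rejecting kidneys.

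Some of the largest changes have no place in these lists. Azgp1, a zinc-binding glycoprotein, was at 179 and 65.2 CPM in naive kidneys and had no UMI in any graft, which makes it at least 299-fold lower in rejecting and at least 731-fold lower in tolerized kidneys. Rnaset2b, a lysosomal ribonuclease, was at 96.6 and 80.3 CPM (naive), 7.37 and 7.92 (rejecting), and 5.83 and 7.42 CPM (tolerized). It has a near-identical neighbor, Rnaset2a, so its fall is uncertain, as are the falls of Rps12-ps3 and Rps27rt in rejecting kidneys and of Rps12-ps3, Rpl13a, and Rpl29 in tolerized kidneys, which are ribosomal protein genes or copies of them. Nudt8, Mkks, and Btf3l4, the remaining genes of largest fall in tolerized kidneys, had log2 fold changes of -4.44, -2.90, and -3.67.

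The comparison of tolerized with rejecting kidneys, which share strain, age, and barcode set, asked whether the treatment changed the S3 cell within a graft. The 1 gene that passed was Rpl41, a very short ribosomal protein gene, at 3177 and 3693 CPM (naive), 642 and 649.7 (rejecting), and 1957 and 1814 CPM (tolerized). The rejecting kidneys were lowest and the naive highest, without overlap (log2 fold change 1.55, SE 0.17, FDR 0.049). The call was lost without naive 1 (FDR 0.16), without naive 2 (FDR 0.16), and without tolerized 2 (FDR 0.069), and with a block for the replicate number (FDR 0.080). At an unadjusted p under 0.05, 1150 genes stood out, or 10.4%, and DESeq2 called 84. None of the lists described above had a member past the threshold. The 2 rejecting and 2 tolerized kidneys did not overlap in 40.4% of all genes, and 47.7% of all genes had a positive log2 fold change. Among the 31 respiratory chain subunits 28 did not overlap and all 31 were positive, with a median of 0.31. Among 19 genes stimulated by type I interferon 17 did not overlap and none was positive, with a median of -0.66. Among 25 genes induced by interferon-γ 1 was positive, with a median of -0.51, and among 18 class I genes 2 were. For class II, Cd74 had a log2 fold change of 0.17 (SE 0.24, FDR 0.84) and the kidneys of both groups overlapped. Genes under 1000 exon bases had a median of 0.28 in this comparison and those above 4000 bases -0.09. The leukocyte markers, which were highest in the first rejecting kidney, and the depth of S3 cells also differed between the groups, and their parts in these values were not tested.

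S3 cells were then set beside the S1/S2 cells of the same kidneys (3633 cells: 714 and 563 (naive), 484 and 256 (rejecting), and 784 and 832 (tolerized)), in a joint fit over 11640 genes with the kidney as a block. Levels in this comparison are CPM of that joint fit unless called raw. The gate itself set the segments apart, so their difference is described without a test. Mep1b, at 49 and 61.4 CPM (naive), 122 and 119.6 (rejecting), and 143 and 89.9 CPM (tolerized) in S3 cells, was at 1.95 and 4.66 CPM (naive), 0.443 and 0.379 (rejecting), and 0.769 and 0.475 CPM (tolerized) in S1/S2 cells. Slco1a1 (log2 difference 6.83), the steroid hydroxylase genes Cyp2a4 (6.05) and Cyp2d9 (5.50), and the fatty acid receptor Cd36 (4.75) were the other genes most shifted toward S3. Toward S1/S2 lay the overlapping ribonuclease genes Rnase4 (-5.91) and Ang (-5.37), the mitochondrial acetate enzyme Acss1 (-5.21), the phosphate transporter Slc34a3 (-5.01), and the cytoskeletal gene Epb41l3 (-4.82). Each of these is a segment difference averaged over the 3 groups.

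How the segment difference varied with the groups was tested as an interaction. The gate was not alike for the groups, as its UMI limits were fixed while depth differed. In S1/S2 cells its marker Slc22a30 had a raw level of 55.6 and 57.9 (naive), 15.01 and 9.16 (rejecting), and 12.78 and 6.71 CPM (tolerized). Slc7a13 was likewise highest there in naive kidneys, whereas Slc22a7 overlapped between naive and rejecting kidneys. The part of the gate in the interactions was not tested, and the gate on thinned counts was not run for them. In rejecting versus naive kidneys 1.25% of genes passed (112 genes, or 0.962%, with S3 gaining on S1/S2, and 34, or 0.292%, with S3 losing), and in tolerized versus naive kidneys 1.35% (111, or 0.954%, and 46, or 0.395%). In both directions together, 146 genes passed in the first comparison and 29 without rejecting 1, and 157 in the second and 84 without naive 2. Mep1b gained in S3 (interaction on the log2 scale 3.98, SE 0.64, FDR 0.0047, and 3.37, SE 0.50, FDR 0.0020), as it was higher in S3 cells of the grafts and below 1 CPM, a level of few UMIs, in their S1/S2 cells. With at most 20% mitochondrial UMIs the interaction of Mep1b did not pass (2.66, FDR 0.59, and 1.2, FDR 0.77), nor did it with at least 4 marker UMIs or without naive 2, nor in rejecting kidneys without rejecting 1. The part of free S3 RNA in the S1/S2 levels was not tested. Timd2, a ferritin receptor, was at 91.2 and 74.5 CPM (naive), 101 and 109.7 (rejecting), and 109.6 and 104 CPM (tolerized) in S3 cells and at 110.4 and 90.4 CPM (naive), 13.9 and 18.9 (rejecting), and 14.8 and 4.11 CPM (tolerized) in S1/S2 cells. It was thus of equal order in both segments of the naive kidneys and held its level only in S3 cells of the grafts (2.98 and 3.91). Ugt2b37, a glucuronidating enzyme, gained by 2.67 and 3.75, and Cyp2a4 by 3.26 and 3.01. The call of Cyp2a4 in rejecting kidneys was lost with at most 20% mitochondrial UMIs and without any 1 of the naive or rejecting kidneys, where its interaction was 2.15 to 5.23. The chemokine gene Cxcl16 (2.51 and 2.38) and Angptl7 (2.14 and 2.35) also gained in S3 cells (FDR 5.5e-06 and 9.6e-06 for Cxcl16, 0.0030 and 0.0011 for Angptl7).

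Fewer genes lost ground in S3. Tnfsf10, the death ligand TRAIL, was at 20 and 20.6 CPM (naive), 81.9 and 92.6 (rejecting), and 64.7 and 96.9 CPM (tolerized) in S3 cells and at 0.651 and 0.932 CPM (naive), 76.4 and 63.6 (rejecting), and 54.4 and 47.5 CPM (tolerized) in S1/S2 cells. Naive S3 cells thus carried it already, S1/S2 cells did not, and the segments were close in all grafts (interaction -4.39 and -4.05, FDR 0.00073 and 0.0012). Ly6a, an interferon-induced surface protein gene, stood at 1236 and 909 CPM (naive), 1841 and 2416 (rejecting), and 2592 and 2267 CPM (tolerized) in S3 cells and at 96.7 and 156 CPM (naive), 1354 and 1430.3 (rejecting), and 1447 and 1269 CPM (tolerized) in S1/S2 cells, with interactions of -2.51 and -2.27. Pla2g16, a phospholipase of fat droplets, had -3.07 and -3.19. Rnase4 went from 8.14 and 4.19 CPM in naive S1/S2 cells to between 139 and 616 in those of the grafts and stayed at or below 7.02 CPM in S3 cells of all kidneys. Its interactions of -4.38 and -3.94 passed (FDR 0.026 and 0.022) but did not with at most 20% mitochondrial UMIs, with at least 4 marker UMIs, or without either naive kidney, nor in rejecting kidneys without either rejecting kidney. Interactions did not pass for Cd74 (0.83, FDR 0.48, and 1.04, FDR 0.29) or Iigp1 (0.47, FDR 0.69, and 0.41, FDR 0.65), while H2-Ab1 gained in S3 cells of tolerized kidneys (1.27, FDR 0.029). Of the 7 class II genes, 1 gained in S3 cells of rejecting and 2 in those of tolerized kidneys, with median interactions of 1.03 and 1.25. Over all genes 0.962% and 0.954% gained. In tolerized versus rejecting kidneys 8 genes passed (0.0687%), all lower in S3. These included the smooth muscle genes Acta2 and Mgp, which were high in S3 cells of the second rejecting kidney alone (Acta2 at 65.2 CPM and at most 7.21 CPM in the others), and Fabp4 and S100a6, high in the first rejecting kidney alone (Fabp4 at 59.1 and at most 11.2 CPM), so each rests on 1 library. Without rejecting 2, 2 genes passed, and without tolerized 1, 189.

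**Figure D5:**
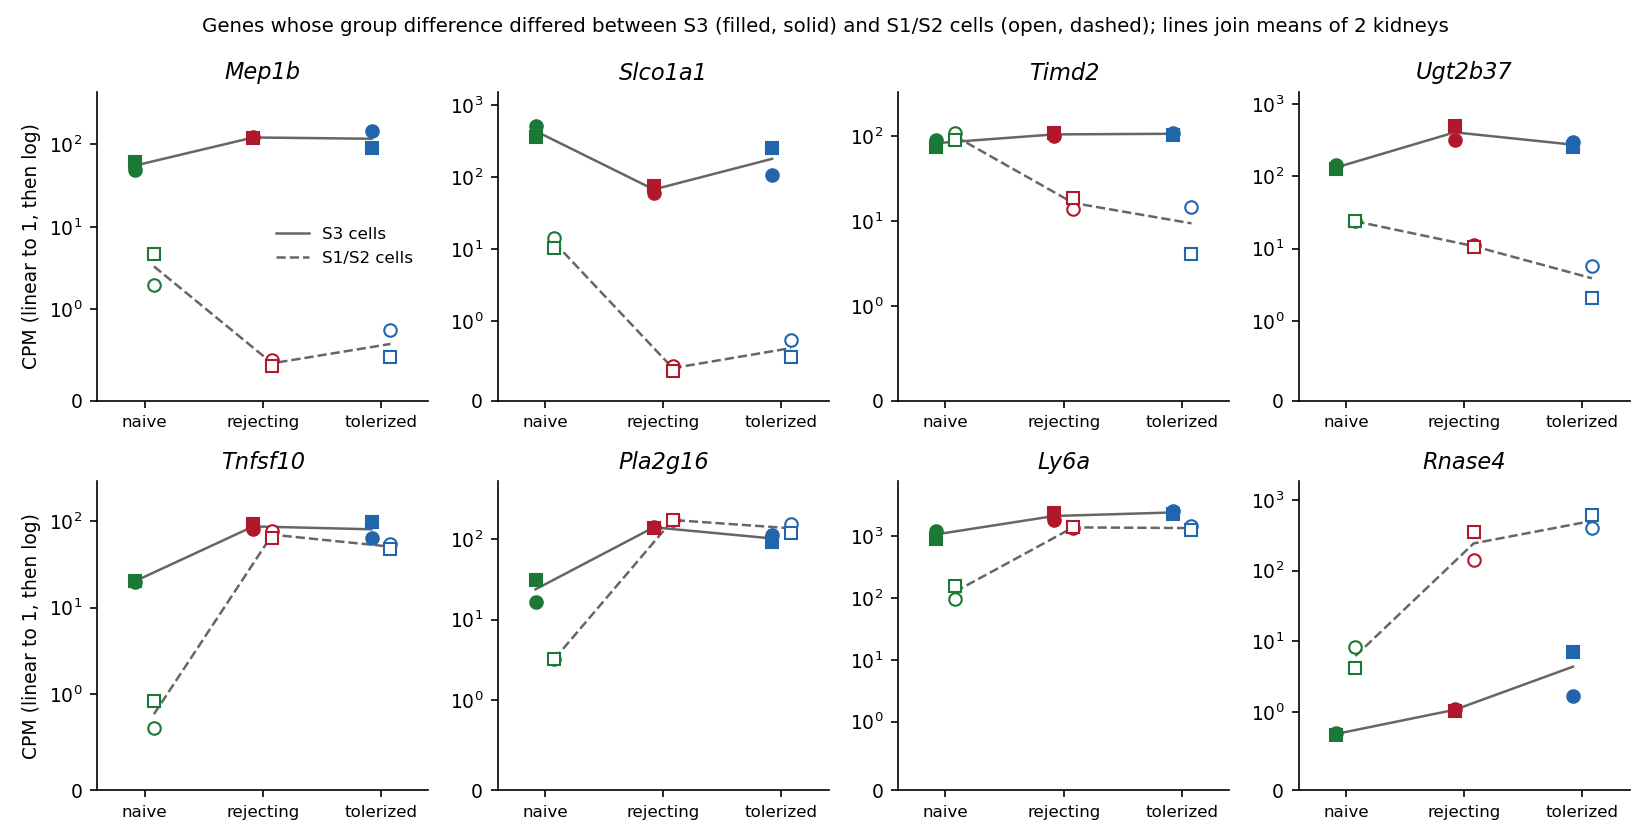
Levels of 8 genes whose segment difference changed with the group, in S3 cells (filled, solid lines) and S1/S2 cells (open, dashed lines), in CPM of the joint fit on an axis that is linear to 1 and logarithmic above (circle, kidney 1; square, kidney 2; lines join group means). Timd2 falls in S1/S2 cells of the grafts alone, and Tnfsf10, Pla2g16, and Ly6a close the gap between the segments in the grafts.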

How the data were processed

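S3 cells were analyzed in 2 naive, 2 rejecting, and 2 tolerized kidneys. The authors deposited 1 matrix of raw UMI counts per kidney, made with Cell Ranger on mm10 per the submitters' processing notes; the matrix headers of the grafts name version 3.0.1. The matrices were joined by Ensembl identifier over 28208 shared genes, 1028 of which had another symbol in the naive lists. UMIs of gated cells were summed per kidney, filtered with filterByExpr, scaled by TMM, and tested with edgeR 4.0.16 (quasi-likelihood, Benjamini-Hochberg) under R 4.3.3. Over the shared genes and before the filter, the sums held about 1857940 to 10867400 UMIs. Segment differences were fitted with the kidney as a block. DESeq2 1.42.0 was an alternative, and Scrublet scores came from scanpy 1.11.5 under Python 3.11.15; 6 to 112 S3 cells per kidney were called doublets and kept except in that alternative. The models were tested on simulated data. Intervals and floors of 3 UMIs cover counting error only, and p-values measure the spread between the kidneys given as replicates. Exon lengths and coordinates are from GENCODE M21 (GRCm38).

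Genes named were, per comparison, the 8 of largest change in each direction (5 for segments) past the FDR with an average log2 CPM of at least 5, without group overlap, gate genes, mitochondrial genes, or unnamed transcripts; the 4 most abundant members of each list; the gate and sex chromosome genes; and the genes the study names for tubular cells; 1 gene this rule named is not reported here. Others, among them Ciita, H2-DMb1, Socs3, Rsad2, Mep1b in the group comparisons, Slc7a12, Slco1a1, Cat, Hao2, Pdk4, Nqo1, Mt1, Mt2, Agt, Slc9a3, Pgk1, Gdf15, Vcam1, Angptl7 in rejecting kidneys, Rnaset2a, and Cxcl16 and H2-Ab1 in the segment comparison, were chosen after their values were seen. The S3 gate, the members, and the lists were chosen with earlier results of these data known.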

Additional observations from a re-analysis of the deposited data

Results flagged for a closer look

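Genes whose change versus naive kidneys differed between S3 and S1/S2 cells were marked by the interaction test (edgeR, FDR of 0.05), and their values are log2 differences, S3 minus S1/S2, of the change. Of the 146 genes in rejecting and the 157 in tolerized versus naive kidneys, only those named by the rule above are listed. In rejecting versus naive kidneys the values were 3.98 for Mep1b, 3.26 for Cyp2a4, 3.02 for Apoe, 2.98 for Timd2, and 2.67 for Ugt2b37. On the other side stood Tnfsf10 at -4.39, Rnase4 at -4.38, Pla2g16 at -3.07, Acss1 at -2.54, and Ly6a at -2.51. The call of Acss1 was lost without either rejecting kidney (FDR 0.25 without rejecting 1), and that of Apoe without rejecting 1 (FDR 0.063). In tolerized versus naive kidneys they were 3.91 for Timd2, 3.75 for Ugt2b37, 3.37 for Mep1b, 3.01 for Cyp2a4, and 2.98 for Slco1a1, and -4.05 for Tnfsf10, -3.94 for Rnase4, -3.19 for Pla2g16, -2.95 for Phf20, and -2.27 for Ly6a. Apoe, the apolipoprotein, was at 17.6 and 32.3 CPM (naive), 141 and 41.4 (rejecting), and 58.9 and 18.1 CPM (tolerized) in S3 cells and 351 and 284 CPM (naive), 189.9 and 93.1 (rejecting), and 119 and 70.9 CPM (tolerized) in S1/S2 cells, by the joint fit. It was therefore higher in S1/S2 cells of each kidney, and the gap was widest in naive kidneys. Apoe is also among the leukocyte markers.

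In tolerized versus rejecting kidneys the interaction was -7.87 for Acta2, -5.15 for Mgp, -4.06 for Fabp4, and -1.63 for S100a6. Each was high in S3 cells of 1 rejecting kidney, the second for Acta2 and Mgp and the first for Fabp4 and S100a6.

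Barcodes outside the gate that met the S3 markers but held at least 2 UMIs of Havcr1 numbered 25 and 29 (rejecting) and 107 and 13 (tolerized), whereas the naive kidneys had none. They were marked because they lie in data that no comparison used.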

How the results depend on the processing

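No gene result with a test changed direction under any alternative run: of 122, 82 also stayed on the same side of the threshold. Among these 122 results, leaving out 1 kidney ended the call against naive kidneys of Acy3, Cyp4b1, Gpx3, Hao2, Hsp90aa1, Krt8, Lamp1, Lrp2, Mep1b, and Slc17a1 in rejecting kidneys and of Cox7c, Cyp4b1, Fbp1, Ggt1, Hao2, Jun, Krt8, Lamp1, Mep1b, Ndufa4, Nqo1, Prdx1, Slc27a2, and Slco1a1 in tolerized kidneys. The kidney was naive 1, naive 2, or a tolerized kidney, or, for Hsp90aa1 alone, also rejecting 1. Other calls in the text, such as those of Hspa5 and Spp1 and of Klk1 in tolerized kidneys, were not among the 122. Against naive kidneys, alternatives other than leaving out a kidney gave 2180 to 3941 genes (rejecting) and 1642 to 2876 (tolerized), and leaving out a kidney gave 1444 to 3094 and 852 to 2550. The single call of tolerized versus rejecting kidneys became 84 with DESeq2, 447 without the filter on low counts, 5 with at least 4 marker UMIs, and 0 with at most 20% mitochondrial UMIs or with the gate on thinned counts; without 1 kidney it was 0 to 118. Segment differences numbered 376 (rejecting versus naive), 461 (tolerized versus naive), and 150 (tolerized versus rejecting) without the filter, 462 and 15 for the last 2 with at most 20% mitochondrial UMIs, and 29 to 277, 84 to 320, and 2 to 189 without 1 kidney. The cause was not tested for any of these.

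With at most 20% mitochondrial UMIs the ratio of mean S3 cell numbers was 0.475 (rejecting) and 0.968 (tolerized) to naive; without 1 kidney it was 0.150 to 0.341 and 0.223 to 0.619, and tolerized to rejecting, 1.71 with all kidneys, was 0.909 to 2.80. The difference in percentage points of kept barcodes was -12.9 and -9.75 with at least 4 marker UMIs and -10.6 and -9.01 with the thinned gate, and in percent of S3 plus S1/S2 cells -26.0 (rejecting versus naive) with at least 4.

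The study used 2 experiments with 1 kidney of each group in both, and whether the replicate numbers are those of the experiments is not given in the labels used here. Deviations of same-numbered kidneys correlated at -0.031 (naive and rejecting), -0.106 (naive and tolerized), and -0.022 (rejecting and tolerized). With the replicate block 2834, 1859, and 1 genes passed in the 3 comparisons of groups, the last not Rpl41, and Cyp4b1, Ndufa4, and Fbp1 in tolerized versus naive kidneys were lost. Numbers crossed for the tolerized kidneys, an alternative added after the correlation was seen, gave 2884, 1945, and 28. Rejecting 2 had the fewest S3 cells, 239, and the fewest S3 UMIs, 1860472.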

Other observations

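Mitochondrial transcripts took part in the gate through their total and were not tested. Within S3 cells they did not move together. mt-Nd1 was at 27092 and 32720.3 CPM (naive), 6872 and 6563 (rejecting), and 7409 and 9703 CPM (tolerized), and mt-Nd2, the next gene for a complex I subunit on the same genome, at 8839 and 9544 CPM (naive), 11303 and 14305 (rejecting), and 12384 and 17644 CPM (tolerized). mt-Nd1 was thus highest in the naive kidneys and mt-Nd2 lowest there, without overlap in either. mt-Nd3 was at 4015 and 3115 CPM (naive), 453 and 1194 (rejecting), and 2193 and 3389 CPM (tolerized), and mt-Cytb at 33817 and 31457 CPM (naive), 10781 and 10179 (rejecting), and 10105 and 16648 CPM (tolerized). For mt-Nd3 the first rejecting kidney was lowest and the tolerized kidneys overlapped with the naive ones. Strain, barcode set, and transplantation cannot be told apart here.

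Of the chaperones, Hspa5, which folds proteins in the endoplasmic reticulum, was at 278 and 284 CPM (naive), 647 and 747 (rejecting), and 445 and 398 CPM (tolerized). It rose in rejecting (1.31, FDR 0.00052) and tolerized kidneys (0.59, FDR 0.032). Its call in tolerized kidneys was lost in some fits that left out a naive or a tolerized kidney, in which no chaperone of the list rose. Ces2c, a carboxylesterase, had log2 fold changes of 5.90 and 6.24, and Hsd11b1, which activates glucocorticoids, of -4.36 and -4.09, all past the threshold. These genes were chosen after their values were seen.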
